A study of Mus musculus with 12 samples.

Results

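Inflammatory cytokines and colony stimulating factors are 10 of the 45859 genes listed in each expression table of the series, found by an exact match of the symbols Il1a, Il1b, Il1rn, Il33, Il6, Il11, Lif, Tnf, Csf1 and Csf3, and all 10 were found in every table. The study modelled cataract surgery in living mice and sequenced total RNA of the lens capsule with the lens cells (LCs) left on it, to learn how LCs respond to the injury and what the integrin β8 does there. LCs of wild type (WT, strain C57BL/6) and β8ITGcKO mice (mixed C57BL/6, 129S1/Sv), all 2 months old and all operated on, were taken at 0 h or 24 h post cataract surgery (PCS), with 3 libraries in each of the 4 groups and 12 in all. In β8ITGcKO mice the lens transgene MLR10-Cre, switched on early in lens development, removes a floxed exon of Itgb8, so gene-level FPKM need not show the deletion. Strain differed along with genotype, so their parts cannot be told apart, and each library pooled several capsules. The 0 h groups were operated on too, so they are capsules collected right after surgery, not lenses that were never injured.

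The 10 genes encode secreted signals that cells use to start, spread and limit inflammation. IL-1α, IL-1β and TNF act on neighbouring cells to switch on NF-κB and AP-1, transcription factors that drive chemokine and cytokine genes, while IL-6, IL-11 and LIF share the receptor subunit gp130 and signal through STAT3. IL-33 is stored in the nucleus of barrier cells and released on damage, the IL-1 receptor antagonist encoded by Il1rn blocks IL-1, and the colony stimulating factors M-CSF (Csf1) and G-CSF (Csf3) govern macrophages and neutrophils. Il1a, Il1b and Il1rn lie on chromosome 2 (129299609 to 129310186, 129364569 to 129371164 and 24336860 to 24351491 in RefSeq GRCm38.p6). Lif and Csf3 lie on chromosome 11 (4257568 to 4272514 and 98700183 to 98703631). Il33 is on chromosome 19 (29925113 to 29960718), Il6 on 5 (30013114 to 30019975) and Il11 on 7 (4772373 to 4782907). Tnf is on chromosome 17 (35199367 to 35202007) and Csf1 on 3 (107741048 to 107760469).

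Promoter sequence is shown for 4 genes because it holds the letters that NF-κB or AP-1 can recognise upstream of genes whose RNA was measured here. RefSeq windows (GRCm38.p6) run from 250 bases before to 50 bases after each gene's start, 5′ to 3′ on the gene's strand, and 9 of the 10 genes had windows, 13 in all. Csf3 had no entry. Capitals mark matches, on either strand, to the AP-1 motif TGANTCA or to the usual κB motif, and no AP-1 match overlapped a κB match.
Il6 (chr5:30012864-30013163, plus strand): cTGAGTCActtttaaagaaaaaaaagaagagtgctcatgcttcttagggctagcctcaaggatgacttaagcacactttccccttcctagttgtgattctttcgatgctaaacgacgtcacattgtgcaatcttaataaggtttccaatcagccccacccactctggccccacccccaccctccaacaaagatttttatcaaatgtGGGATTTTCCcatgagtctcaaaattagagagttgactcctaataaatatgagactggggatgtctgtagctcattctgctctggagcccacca
Lif (chr11:4257318-4257617, plus strand): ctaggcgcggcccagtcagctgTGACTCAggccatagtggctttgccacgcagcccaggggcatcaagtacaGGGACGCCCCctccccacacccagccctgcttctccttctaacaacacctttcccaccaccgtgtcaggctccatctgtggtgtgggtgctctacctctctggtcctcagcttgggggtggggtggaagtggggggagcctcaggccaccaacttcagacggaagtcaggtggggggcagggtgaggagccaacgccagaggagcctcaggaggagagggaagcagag
Csf1 (chr3:107760420-107760719, minus strand): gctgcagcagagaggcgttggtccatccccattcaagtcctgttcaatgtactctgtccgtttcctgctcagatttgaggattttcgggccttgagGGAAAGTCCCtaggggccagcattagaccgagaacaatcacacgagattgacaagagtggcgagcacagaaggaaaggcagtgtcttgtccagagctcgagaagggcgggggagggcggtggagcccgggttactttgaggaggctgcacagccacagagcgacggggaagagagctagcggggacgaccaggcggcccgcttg
Il1rn, first of its 3 windows (chr2:24336610-24336909, plus strand): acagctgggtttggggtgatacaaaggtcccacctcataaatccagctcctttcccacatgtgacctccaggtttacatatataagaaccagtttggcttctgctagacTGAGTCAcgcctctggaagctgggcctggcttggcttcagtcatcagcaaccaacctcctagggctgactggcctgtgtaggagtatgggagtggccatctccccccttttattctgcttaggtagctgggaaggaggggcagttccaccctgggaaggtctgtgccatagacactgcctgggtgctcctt
In Il6 the κB match began at position -44 from the gene start and the AP-1 match at -249. In Lif they began at -178 and -228. Csf1 had a κB match at -154, and Il1rn an AP-1 match at -141. A κB match was found in 3 of the 13 windows, where 8.46% of all 32851 windows in the table had one, and an AP-1 match in 5 of the 13 (Il1a at -12 and Il11 at -98 beside Il1rn, Il6 and Lif), where 7.81% of all windows had one. The STAT motif TTCNNNGAA was in none of the 13 windows and in 8.3% of all windows. These matches describe the letters in the windows and nothing about binding.

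Values are FPKM, fragment counts scaled for transcript length and for library size, which are per length and so allow levels of different genes to be set side by side. The summed FPKM of a library ran from 446531 to 740140, and the steps between low values gave relative depths of 0.872 to 1.09, with total depth unknown. Since RNA came from whole capsules, fewer cells of a type and less RNA per cell cannot be told apart, and p-values measure only the spread between these libraries. Lens epithelium marker genes were present in all groups (8 or 9 of 9 at 1 FPKM or more in every library), and an FPKM of exactly 0 may be a failed estimate, since WT 0 h replicate 2 lists the crystallin gene Cryaa at 0 while no other library has it below 8385 FPKM. Itgb8 spanned 7.26 to 10.8 FPKM at 0 h and 8.38 to 9.58 FPKM at 24 h in WT, and 4.58 to 7.31 and 9.28 to 11.8 FPKM in β8ITGcKO, so its gene-level FPKM did not separate the genotypes at 24 h.

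Right after surgery most of these genes were near the lower limit of measurement. In WT 0 h, 4 of the 10 genes had a mean of at least 0.5 FPKM, and in β8ITGcKO 0 h 2 of 10. Il33 was highest, with 14.0 ± 6.07 FPKM (SD, n = 3) in WT and 7.38 ± 1.56 FPKM in β8ITGcKO, and made up 64.5% to 80.6% of the summed FPKM of the 10 genes in every 0 h library. Csf1 followed with 3.78 ± 0.306 and 1.86 ± 0.706 FPKM, then Lif with 1.22 ± 0.239 and 0.229 ± 0.0159 FPKM. The ranges of Il33, Csf1 and Lif did not overlap one another in either 0 h group, whereas neighbours from Lif downward overlapped. Tnf was listed at 0 in all 3 WT 0 h libraries, and Il1rn, Il6 and Csf3 in all 3 β8ITGcKO 0 h libraries.

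By 24 h all 10 genes had a higher mean than at 0 h in both genotypes, and all had a mean of at least 0.5 FPKM. In WT 24 h the means ran from 0.838 FPKM (Tnf) to 62.6 FPKM (Il33), in the order Il33, Csf3, Csf1, Lif, Il1rn, Il1b, Il11, Il6, Il1a and Tnf, and every pair of neighbours in that order overlapped. In β8ITGcKO 24 h the order was Il33, Csf1, Lif, Il1rn, Csf3, Il1b, Il11, Il1a, Tnf and Il6, from 37.1 to 0.633 FPKM, with no overlap between Il33 and Csf1, Csf1 and Lif, or Il1b and Il11. Csf3 thus stood second in WT and below Il1rn in β8ITGcKO. The share of Il33 in the sum of the 10 genes was 23.7% to 54.2% at 24 h.

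**Figure D1:**
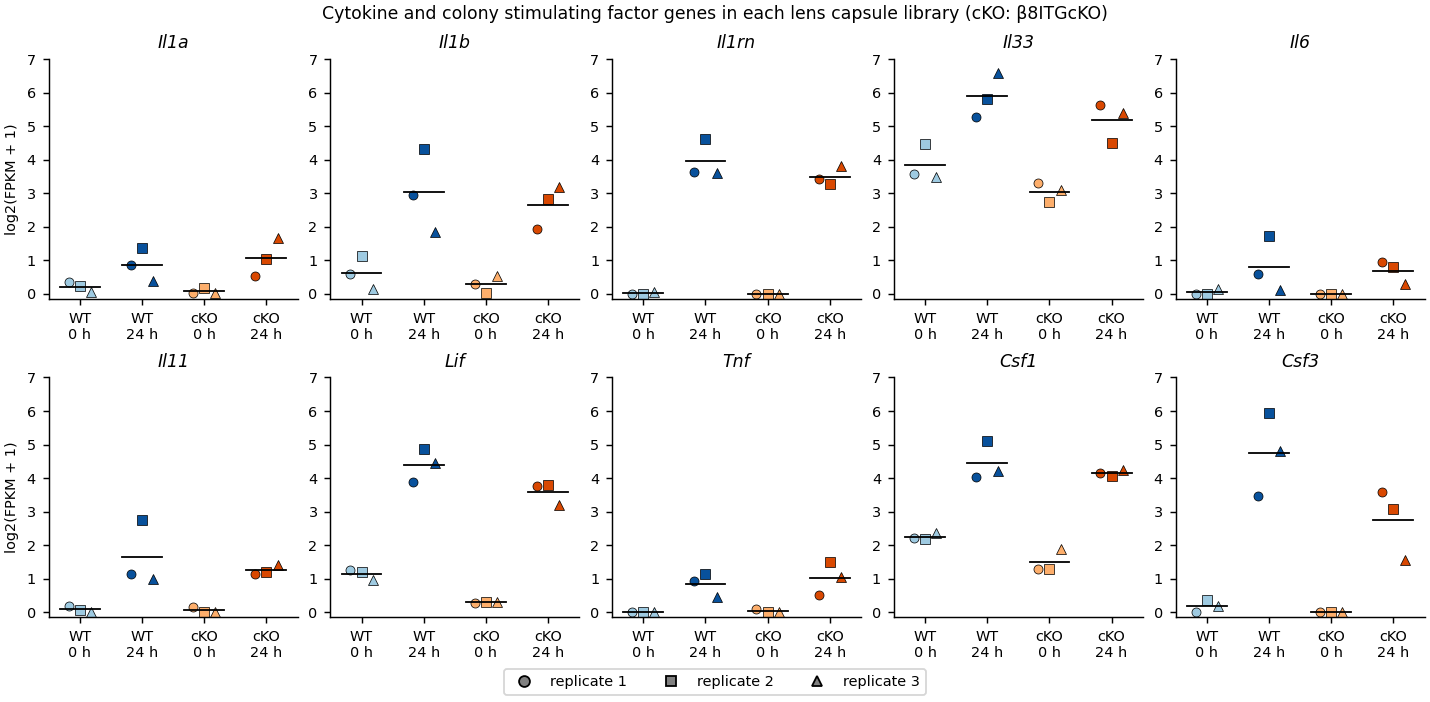
FPKM of the 10 genes on the log2(FPKM + 1) scale (y axis) in the 3 libraries of each group (x axis, cKO for β8ITGcKO), with symbols for replicates and a bar for the mean of the plotted values. The mean of each of the 10 genes is higher at 24 h than at 0 h in both genotypes, Il33 is the highest gene at 0 h, and WT 24 h replicate 2 (dark blue square) is the highest WT library for 9 of the 10 genes.

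The change from 0 h to 24 h asked how each gene responded to surgery, and was fitted on log2(FPKM + 1) with limma over all genes averaging 0.5 FPKM or more across the 6 libraries compared. A gene was called when its p, adjusted by the Benjamini-Hochberg method, did not exceed 0.05 and the group means differed by a fold over 2 and by over 2 FPKM, with at least 2 FPKM in 1 group. In WT 7 of the 10 genes were called higher (Il1b, Il1rn, Il33, Il11, Lif, Csf1 and Csf3) and 10.3% of the 15146 genes tested were. Tnf was below the filter, and Il1a and Il6 did not pass. In β8ITGcKO 6 of the 10 were called higher (Il1b, Il1rn, Il33, Lif, Csf1 and Csf3), against 11.3% of 15237 genes, with Il6 below the filter. A gene that is near 0 at 0 h passes the filter only through its 24 h level, so these counts describe the genes and test nothing about them as a group. The 24 h libraries lay above all 0 h libraries for 9 of the 10 genes in WT, where 31.3% of all genes tested did so, and for 10 of 10 in β8ITGcKO, where 42.9% did.

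**Figure D2:**
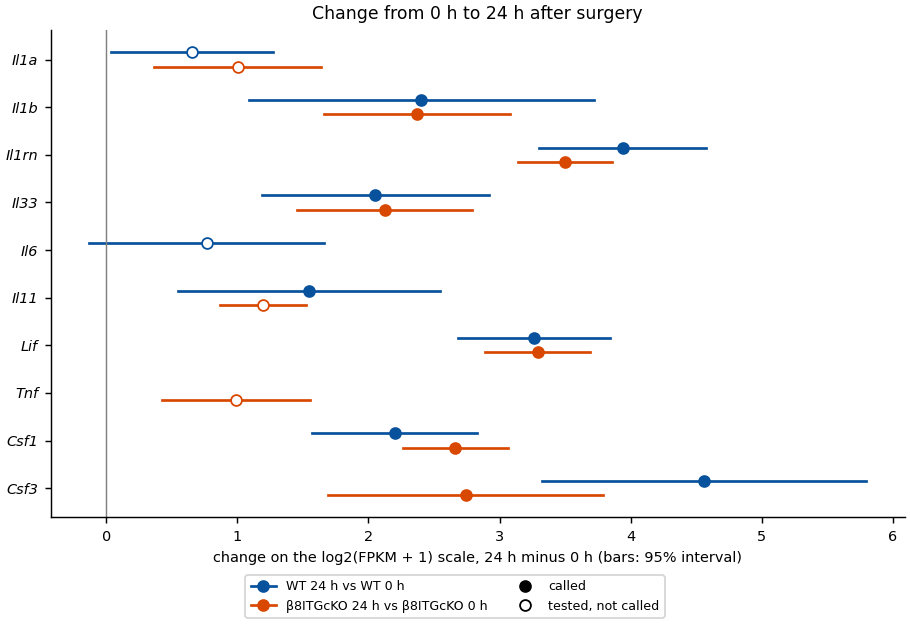
Change from 0 h to 24 h on the log2(FPKM + 1) scale (x axis) for each gene (y axis) in WT (blue) and β8ITGcKO (orange), with 95% intervals and filled points for called genes. Only tested genes are drawn. The intervals of Il1b, Il1rn, Il33, Lif, Csf1 and Csf3 lie above 0 in both genotypes, and that of Il6 in WT reaches -0.13.

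Among the IL-1 genes, the antagonist gene Il1rn went from almost nothing to one of the higher levels. It was listed at 0, 0 and 0.0437 FPKM in WT 0 h replicates 1 to 3 and at 11.5, 23.6 and 11.2 FPKM in WT 24 h. In β8ITGcKO it was listed at 0 in all 3 libraries at 0 h and had 9.66, 8.69 and 12.9 FPKM at 24 h. Every 24 h library was far above every 0 h library. The change was 3.94 on the log2 scale (SE 0.28, limma adjusted p = 0.000169) in WT and 3.50 (SE 0.15, adjusted p = 7.07e-06) in β8ITGcKO.

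Il1b, the secreted form of IL-1 made above all by myeloid cells, had 0.519, 1.19 and 0.118 FPKM in WT 0 h and 6.73, 18.8 and 2.58 FPKM in WT 24 h. In β8ITGcKO it had 0.232, 0.0128 and 0.440 FPKM at 0 h and 2.86, 6.08 and 8.10 FPKM at 24 h. The groups did not overlap, but the WT 24 h libraries were spread widely, with replicate 2 far above replicate 3. The rise was 2.40 (SE 0.57, adjusted p = 0.0172) in WT and 2.37 (SE 0.31, adjusted p = 0.00065) in β8ITGcKO by limma. The WT call was lost without WT 0 h replicate 1 (adjusted p = 0.0532), without WT 0 h replicate 3 (0.0576) and with no filter on low values (0.067).

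Il1a, whose product signals through the same receptor and is present in epithelial cells, stayed low, with 0.283, 0.177 and 0.0432 FPKM in WT 0 h and 0.833, 1.57 and 0.307 FPKM in WT 24 h. In β8ITGcKO it had 0.0148, 0.134 and 0.0133 FPKM at 0 h and 0.435, 1.04 and 2.20 FPKM at 24 h. All 24 h libraries were above the 0 h libraries of their genotype, the lowest WT 24 h library only just. The WT difference of 0.65 (95% interval 0.04 to 1.27) had an adjusted p of 0.102 by limma, and of 0.0255 without WT 24 h replicate 3. In β8ITGcKO the difference was 1.0 (SE 0.27, adjusted p = 0.0190), which passed the p threshold but not the criterion on level. That p was above the threshold without β8ITGcKO 0 h replicate 1 (0.0520) or replicate 3 (0.0561), and at 0.0530 with no filter on low values. The ratio of Il1rn to the sum of Il1a and Il1b, in FPKM, was 1.52, 1.16 and 3.88 in WT 24 h and 2.93, 1.22 and 1.26 in β8ITGcKO 24 h, so the antagonist RNA exceeded the agonist RNA in all 6 libraries and the genotypes overlapped.

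Il33, the alarmin of the family, was the highest of the 10 genes in 11 of 12 libraries, the exception being WT 24 h replicate 2, where Csf3 was higher. It had 10.9, 21.0 and 10.1 FPKM in WT 0 h and 37.6, 54.7 and 95.5 FPKM in WT 24 h. It had 8.86, 5.75 and 7.54 FPKM in β8ITGcKO 0 h and 48.9, 21.5 and 40.9 FPKM in β8ITGcKO 24 h. Levels rose in both genotypes with no overlap, by 2.05 (SE 0.37, adjusted p = 0.00659) in WT and 2.12 (SE 0.29, adjusted p = 0.000816) in β8ITGcKO on the log2 scale in limma.

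Of the gp130 cytokines tested, Lif changed most. Lif, a factor that maintains stem cells and acts on many tissues, had 1.39, 1.31 and 0.942 FPKM in WT 0 h and 13.9, 28.5 and 20.7 FPKM in WT 24 h. It had 0.215, 0.225 and 0.246 FPKM in β8ITGcKO 0 h and 12.6, 12.9 and 8.21 FPKM in β8ITGcKO 24 h. The WT 24 h libraries spanned 13.9 to 28.5 FPKM, and every 24 h library was far above every 0 h library, with a rise of 3.26 (SE 0.25, adjusted p = 0.000246) in WT and 3.29 (SE 0.17, adjusted p = 1.39e-05) in β8ITGcKO in limma. The 17.3-fold ratio of the WT means compares with 49.2-fold in β8ITGcKO, whose 0 h level was lower.

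Il11, a cytokine tied to stromal and fibrotic responses, had 0.139, 0.0552 and 0.00132 FPKM in WT 0 h and 1.22, 5.72 and 1.01 FPKM in WT 24 h. It was listed at 0.122, 0 and 0 FPKM in β8ITGcKO 0 h and had 1.23, 1.29 and 1.64 FPKM at 24 h. The times did not overlap, and WT 24 h replicate 2 stood apart from the other WT 24 h libraries. The WT rise of 1.55 (SE 0.43, limma adjusted p = 0.0315) held in 2 of 5 fits that each left out 1 library, and without WT 24 h replicate 2 the gene fell below the filter. The β8ITGcKO rise of 1.20 (SE 0.14, adjusted p = 0.000417) passed the p threshold with a mean below 2 FPKM, and passed it in 6 of 6 such fits.

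Il6, the acute-phase cytokine, was the only gene of the 10 whose WT groups overlapped, with 0, 0 and 0.110 FPKM at 0 h and 0.519, 2.34 and 0.0755 FPKM at 24 h. In β8ITGcKO it was listed at 0 in all 3 libraries at 0 h and had 0.928, 0.738 and 0.233 FPKM at 24 h. WT 24 h replicate 3 was below the highest 0 h library, and replicate 2 was well above all others. The WT difference was 0.77 (95% interval -0.13 to 1.66, limma adjusted p = 0.170), with an adjusted p of 0.0432 without WT 24 h replicate 3. Its promoter window is 1 of the 2 printed with both a κB and an AP-1 match, the other being that of Lif.

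Tnf, the early macrophage cytokine, was listed at 0 in all WT 0 h libraries and had 0.919, 1.21 and 0.382 FPKM in WT 24 h, too low to be tested over the 6 libraries. In β8ITGcKO it was listed at 0.0810, 0 and 0 FPKM at 0 h and had 0.424, 1.84 and 1.08 FPKM at 24 h. The times did not overlap in either genotype, and the β8ITGcKO difference was 0.99 (SE 0.24, adjusted p = 0.0126 by limma), again below the criterion on level. With Il11, Il1a and Tnf counted, 9 of the 10 genes passed the adjusted p alone in β8ITGcKO, Il1a not in every alternative, against 35.4% of all genes tested.

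The colony stimulating factor genes both rose. Csf1, which sustains macrophages, had 3.65, 3.56 and 4.13 FPKM in WT 0 h and 15.5, 33.6 and 17.4 FPKM in WT 24 h. It had 1.47, 1.43 and 2.67 FPKM in β8ITGcKO 0 h and 16.9, 15.6 and 17.8 FPKM in β8ITGcKO 24 h. All 24 h libraries were well above the 0 h libraries, and at 24 h the β8ITGcKO libraries lay inside the WT range. The rise was 2.20 (SE 0.27, adjusted p = 0.00154) in WT and 2.66 (SE 0.17, adjusted p = 3.09e-05) in β8ITGcKO in limma.

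Csf3, the neutrophil growth and release factor, was listed at 0, 0.290 and 0.139 FPKM in WT 0 h and had 10.1, 60.4 and 27.2 FPKM in WT 24 h. It was listed at 0 in all 3 β8ITGcKO 0 h libraries and had 10.99, 7.46 and 1.96 FPKM in β8ITGcKO 24 h. In both genotypes the times were apart, and both 24 h groups were widely spread. The change in WT was 4.56 (SE 0.53, adjusted p = 0.00126), the largest among the 9 genes tested there, and 2.74 (SE 0.45, adjusted p = 0.00205) in β8ITGcKO by limma.

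Pan-leukocyte, neutrophil and macrophage marker sums were higher at 24 h in the same comparisons, while most neutrophil and macrophage genes were not called or too low to be tested. The summed FPKM of 6 pan-leukocyte genes went from 2.78 to 7.05 in WT 0 h libraries to 27.6 to 28.5 in WT 24 h, and from 3.70 to 6.73 to 19.9 to 31.4 in β8ITGcKO, with 5 and 4 of the 6 called higher. Over all genes tested 10.3% and 11.3% were called higher. The sum of 10 neutrophil genes went from at most 0.915 to 12.5 to 16.0 in WT and from at most 1.30 to 5.80 to 13.7 in β8ITGcKO, of which Csf3r and Cxcr2 passed the criteria in WT and Csf3r in β8ITGcKO, and the granule genes Mpo and Elane and the surface gene Ly6g were listed at 0 in all 12 libraries. Csf3r and Cxcr2 added most to the neutrophil sum at 24 h in both genotypes. The sum of 10 macrophage genes was 11.9 to 23.2 FPKM in WT 0 h and 26.7 to 38.2 in WT 24 h, and 11.2 to 17.1 and 30.7 to 51.7 in β8ITGcKO. In WT 1 of the 8 macrophage genes tested was called higher (Cd68, mean 0.488 at 0 h and 7.64 FPKM at 24 h), and the median log2 change was -0.12. In β8ITGcKO 3 of 9 were called higher (Cd68, Lyz2 and C1qa), with a median of 0.73, and Lyz2 added most to the sum in both genotypes. The part of these cells in the cytokine RNA was not tested. Mast cell and T cell gene sums stayed at or below 3.43 and 0.430 FPKM in every library. The endothelial sum was 0.872 to 4.36 FPKM in WT 0 h and 0.760 to 2.06 in WT 24 h, and went from 1.06 to 2.01 up to 5.80 to 7.83 FPKM in β8ITGcKO, where Kdr was called higher. Lens fiber genes fell, with 10 of 10 called lower in both genotypes, and of 9 lens epithelium genes 2 were called lower in WT and 5 in β8ITGcKO. Of all genes tested, 2159 of 15146 in WT and 2294 of 15237 in β8ITGcKO were called in either direction. Of these, 1566 in WT and 1719 in β8ITGcKO were called higher and the rest lower. The corneal epithelium sum was 214 to 272 FPKM in WT 0 h and 157.5 to 449 in WT 24 h, and 539 to 921 and 141 to 193 in β8ITGcKO, with Aldh3a1 and 1 other gene called lower there. Aldh3a1 made up most of that sum in every group. The corneal stroma sum was 735 to 996 and 597 to 818 FPKM in WT and 976 to 1139 and 540 to 1128 in β8ITGcKO. Aldh1a1 and Ptgds made up most of that sum in every group, while Kera and Lum had means of at most 0.183 FPKM. Dcn had means of 2.40 and 0.210 FPKM in WT and 0.0934 and 0.441 FPKM in β8ITGcKO at 0 h and 24 h. The sum of iris and ciliary pigment genes was 19.9 to 84.0 and 27.5 to 33.3 FPKM in WT and 11.5 to 15.5 and 12.7 to 23.9 in β8ITGcKO. The part of these changes in the cytokine values was not tested either. In WT 24 h replicates 1 to 3 the pan-leukocyte sum was 28.3, 27.6 and 28.5 FPKM, the neutrophil sum 15.8, 12.5 and 16.0 FPKM, and the macrophage sum 35.6, 38.2 and 26.7 FPKM.

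**Figure D3:**
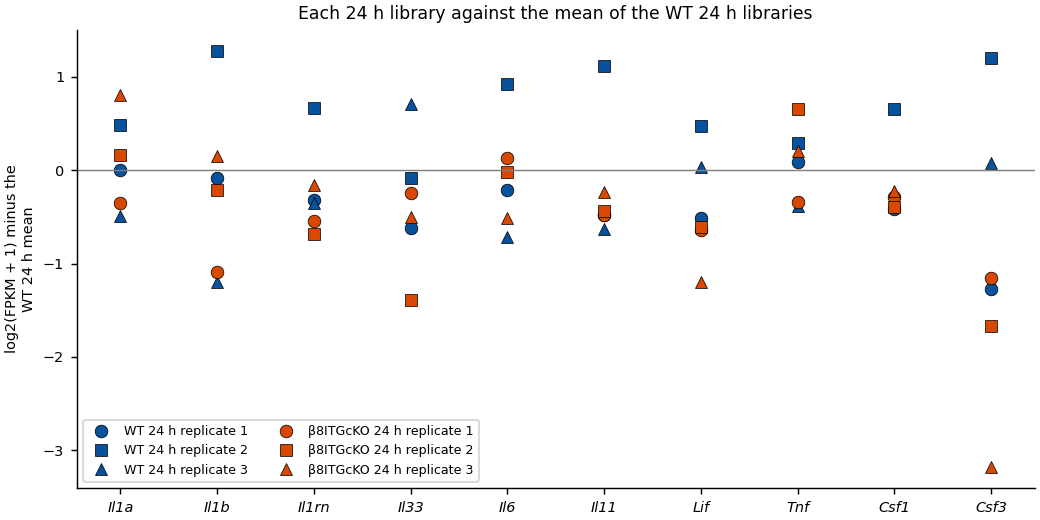
Each 24 h library minus the mean of the 3 WT 24 h libraries on the log2(FPKM + 1) scale (y axis) for each gene (x axis), with blue symbols for WT and orange for β8ITGcKO. WT replicate 2 (blue square) is above the WT mean for 9 of the 10 genes, and the β8ITGcKO libraries overlap the WT libraries for every gene except Lif.

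WT 24 h replicate 2 was the highest WT 24 h library for 9 of the 10 genes, where it was the highest for 45.02% of all genes averaging 0.5 FPKM or more in the group. Il33 was the exception, with its highest value in replicate 3. The summed FPKM of the 10 genes was 98.8, 230.5 and 176.4 in the WT 24 h libraries and 105, 77.2 and 95.1 in β8ITGcKO 24 h, so 1 WT library lay within the β8ITGcKO range and the other two above it.

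The comparison of genotypes at 24 h asked whether loss of β8 integrin altered the levels reached, and it uses the same 24 h libraries as the comparisons over time. Means were lower in β8ITGcKO for 8 of the 10 genes and higher for Il1a and Tnf, but none of the 10 tested genes was called by limma, against 3.66% of 15366 genes, and 2 had an unadjusted p under 0.05, as had 20.4% of all genes. The larger difference was in Csf3, with means of 6.80 ± 4.55 FPKM in β8ITGcKO and 32.6 ± 25.6 FPKM in WT (SD, n = 3), a difference of -2.00 (95% interval -3.62 to -0.38, adjusted p = 0.156). The highest β8ITGcKO library, 10.99 FPKM, exceeded the lowest WT library, 10.1 FPKM. In a single fit over all 12 libraries, which shares 1 estimate of spread, Csf3 had an adjusted p of 0.0404 and was called.

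Lif was the only gene of the 10 whose genotypes did not overlap at 24 h, with 12.9 FPKM in the highest β8ITGcKO library and 13.9 FPKM in the lowest WT library, while 9% of all genes tested were lower without overlap. Its difference was -0.82 (95% interval -1.46 to -0.17, limma adjusted p = 0.146), and 0.0416 in the fit over all 12 libraries, where the fold of the means stayed under 2. For the other 8 genes the intervals spanned 0. They ran from -1.64 to 0.21 for Il33, from -1.14 to 0.22 for Il1rn, from -0.93 to 0.33 for Csf1 and from -1.78 to 1.02 for Il1b, so that differences of either direction remain possible for these. The photoreceptor marker sum was 908 to 1060 FPKM in β8ITGcKO 24 h and 78.2 to 147 FPKM in WT 24 h. Its genes were called higher in β8ITGcKO 24 h in 10 of 10 cases, against 3.66% of all genes called in either direction. At 0 h the sum was 148 to 1225 FPKM in WT and 191 to 351 FPKM in β8ITGcKO. The endothelial gene Kdr was also called higher in β8ITGcKO 24 h by limma (3.72 against 0.608 FPKM, adjusted p = 0.0173, with an interaction of 2.19 and adjusted p = 0.0261) and the pigment gene Pmel lower (2.87 against 7.68 FPKM, adjusted p = 0.0129). The part of these cells in the differences was not tested.

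**Figure D4:**
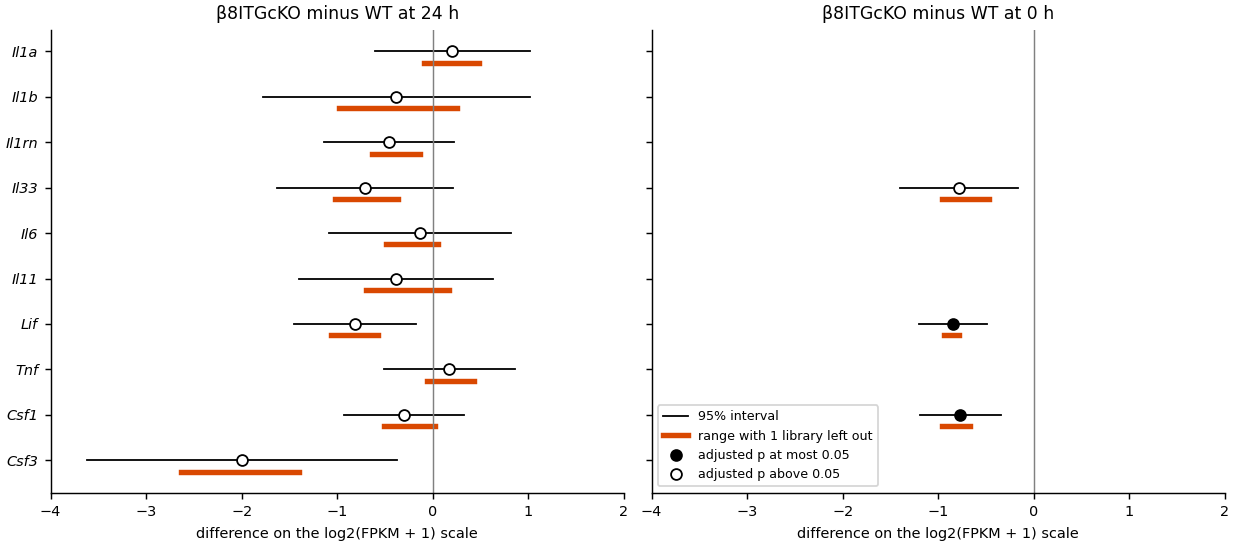
Difference between β8ITGcKO and WT on the log2(FPKM + 1) scale (x axis) at 24 h (left) and 0 h (right) for each gene tested (y axis), with 95% intervals in black and, in orange, the range of the difference when 1 library at a time is left out. At 24 h the intervals of Lif and Csf3 lie below 0 with open points (adjusted p above 0.05). At 0 h Il33, Lif and Csf1 were tested and lie below 0.

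At 0 h only Il33, Lif and Csf1 were high enough to be tested between genotypes, and all 3 were lower in β8ITGcKO with no overlap, as were 12.8% of all genes tested. Lif means were 0.229 and 1.22 FPKM, a difference of -0.84 (SE 0.16, adjusted p = 0.0241), and Csf1 means were 1.86 and 3.78 FPKM, a difference of -0.77 (SE 0.18, adjusted p = 0.0480). Il33 differed by -0.79 (95% interval -1.40 to -0.17, adjusted p = 0.122). With the adjusted p alone 2 of the 10 genes were lower in this limma fit, against 2.75% of all genes, and none met all the criteria of a call, against 2.52%. Csf1 met those on fold (WT mean 2.04 times the β8ITGcKO mean) and level, but its means did not differ by over 2 FPKM. Lif stayed below the criterion on level. The adjusted p of Lif stayed at or below 0.05 in 1 of 6 fits that each left out 1 library, as did that of Csf1, and both exceeded it in 1 fit over all 12 libraries (0.0504 and 0.0865).

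Several genes of acute response were also lower in β8ITGcKO than in WT at 0 h. The summed FPKM of 8 immediate early genes was 69.8 to 315.5 in WT 0 h and 17.7 to 19.3 in β8ITGcKO 0 h. Of these 8 genes, 7 were tested and 5 were called lower, led by Atf3 and Fos. Of 20 inducible targets of IL-1, TNF and IL-6 signaling, 16 were tested and 8 were called lower, led by the chemokine gene Ccl2 (4.59 against 201 FPKM), then Tnfaip3, Nfkbia and Pim1. Of all genes tested at 0 h 1.18% were called lower. The corneal epithelium sum (539 to 921 FPKM in β8ITGcKO, 214 to 272 in WT, with Aldh3a1 called higher) and the pigment sum (11.5 to 15.5 against 19.9 to 84.0 FPKM) also did not overlap between the 0 h groups, although no pigment gene was called. Aldh3a1 made up most of the corneal epithelium sum (mean 734 FPKM in β8ITGcKO 0 h and 240 FPKM in WT 0 h). Of the other genes in that sum, Krt14 and Krt15 had higher means in β8ITGcKO, and Krt12, Krt5, Dsg1a and Trp63 lower ones. The part of these differences between the 0 h groups in the cytokine values was not tested.

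Whether the response over time differed between genotypes was tested as an interaction in 1 fit over all 12 libraries, with an adjusted p of at most 0.05 as the call. None of the 8 genes tested was called, against 9.39% of 15262 genes, and 1 had an unadjusted p under 0.05, as had 24.2% of all genes. That gene was Csf3, whose change was smaller in β8ITGcKO by 1.82 on the log2 scale (95% interval of the interaction -3.54 to -0.09, adjusted p = 0.182). Leaving out WT 24 h replicate 1 brought its adjusted p to 0.0492. The interaction of Lif was 0.03 (95% interval -0.68 to 0.74, adjusted p = 0.971) and that of Il33 0.07 (-1.09 to 1.23), each with room for a difference of either sign. The interval of Il1rn ran from -1.17 to 0.29 and that of Csf1 from -0.29 to 1.22.

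Receptor genes for these ligands were also measured. Of 12 receptor genes, 11 tested over time in each genotype, 7 were called higher at 24 h in WT and 5 in β8ITGcKO, none lower. Of all genes tested 10.3% and 11.3% were called higher. Between genotypes none was called of 11 tested at 24 h and 8 at 0 h, where 3.66% and 2.52% of all genes were. The median log2 change of those tested was 1.33 in WT and 1.15 in β8ITGcKO, against 0.16 and 0.23 over all genes tested. Csf3r, the G-CSF receptor and also 1 of the neutrophil markers, rose from 0.154 ± 0.0265 to 9.29 ± 1.49 FPKM in WT (log2 change 3.15, SE 0.17, adjusted p = 6.55e-05) and from 0.251 ± 0.193 to 6.22 ± 2.83 FPKM in β8ITGcKO (2.46, SE 0.28, adjusted p = 0.000376). Il1r1, the signaling receptor of IL-1, rose from 1.67 to 9.09 FPKM in WT and from 0.594 to 5.35 FPKM in β8ITGcKO, and the TNF receptor Tnfrsf1b from 1.12 to 7.20 and from 1.24 to 6.31 FPKM. Il1r2, a decoy receptor for IL-1, rose from 0.00391 to 2.93 FPKM in WT. In β8ITGcKO it went from 0.0323 to 1.31 FPKM, below the criterion on level. Tnfrsf1a, the main TNF receptor, rose from 9.42 to 23.5 FPKM in WT and from 6.39 to 21.1 FPKM in β8ITGcKO.

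The next receptor genes were chosen after their values were seen. Il6st, which encodes gp130, was the highest receptor gene, with 30.4 ± 3.21 FPKM in WT 0 h and 42.6 ± 0.982 FPKM in WT 24 h. Lifr, the LIF receptor, had 8.60 ± 0.177 and 8.15 ± 0.948 FPKM there, a difference of -0.07 (95% interval -0.40 to 0.25, adjusted p = 0.718), beside the large rise of its ligand. Il11ra1 was lower at 24 h, by -0.70 (SE 0.13, adjusted p = 0.00711) in WT and -0.76 (SE 0.17, adjusted p = 0.00783) in β8ITGcKO, without reaching the fold criterion. Il1rl1, the receptor of IL-33, stayed at or below 1.15 FPKM in every library, and Csf1r, the receptor of M-CSF, had 2.11 ± 0.626 and 1.84 ± 0.203 FPKM in WT at 0 h and 24 h.

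**Figure D5:**
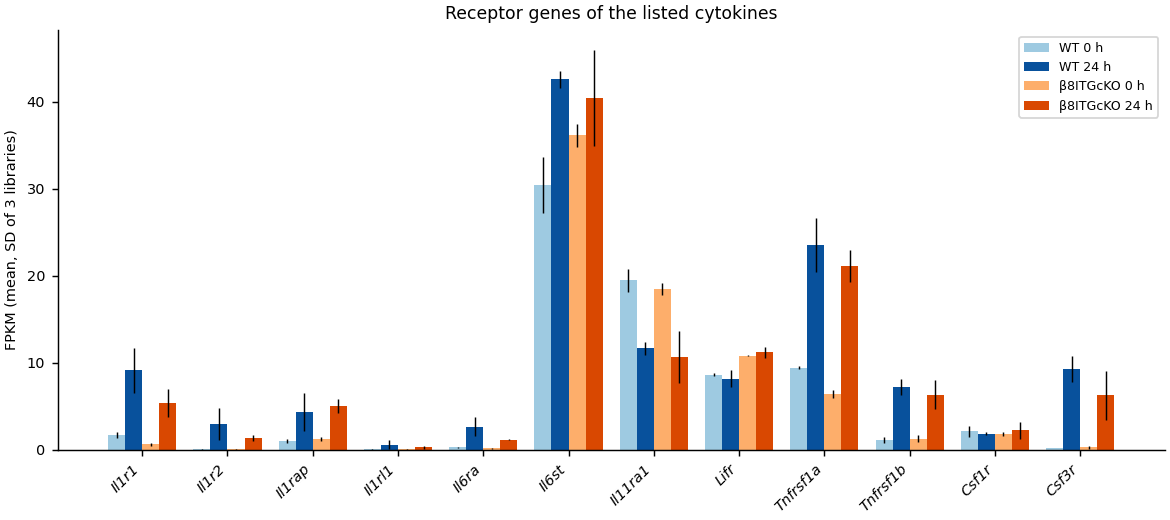
FPKM (y axis, mean of 3 libraries, error bars SD) of the 12 receptor genes (x axis) in the 4 groups. Il6st is the tallest in every group, the IL-1, TNF and G-CSF receptor genes are taller at 24 h than at 0 h in both genotypes, and Il11ra1 is shorter.

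Genes that handle or transmit these signals were followed as lists. Of 20 inducible targets, 13 were called higher at 24 h in WT (median log2 change 1.46, against 0.16 over all genes tested) and 18 in β8ITGcKO (2.36 against 0.23), with none lower. Of all genes tested 10.3% and 11.3% were called higher. Lcn2, an iron-binding acute-phase protein gene, rose from 17.4 to 2338 FPKM in WT and from 6.14 to 1725 FPKM in β8ITGcKO. The adhesion gene Vcam1 rose in both. The others among the 4 largest changes were Cxcl2 and the prostaglandin synthase gene Ptgs2 in WT, and Ccl2 and Cxcl1 in β8ITGcKO. Cxcl2 and Ptgs2 were also called higher in β8ITGcKO (log2 changes 3.56 and 2.72), and Cxcl1 in WT (2.30). Ccl2 was not called in WT, with 201 FPKM at 0 h and 240 FPKM at 24 h. The interaction was called higher for 4 of the 20, against 6.83% of all genes, namely Ccl2, Tnfaip3, Nfkbia and Pim1, all 4 called lower in β8ITGcKO at 0 h, a comparison that uses the same 0 h libraries.

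Of 12 genes of cytokine processing and release, 2 were called higher in WT (Casp8 and Capn2) and 1 in β8ITGcKO (Casp8), of 9 and 8 tested, against 10.3% and 11.3% of all genes. Casp1, which encodes the protease that matures IL-1β, was chosen after its values were seen and stayed at or below 0.202 FPKM in every library. The median log2 change of the list was 0.53 in WT and 0.09 in β8ITGcKO, against 0.16 and 0.23 over all genes. Among 18 adaptors and kinases, with medians of 0.47 and 0.33, Irak4, Myd88, Tradd and Traf2 were called higher in WT and Myd88 in β8ITGcKO, where Myd88 joins the IL-1 receptor to its kinases. These are 4 of 18 and 1 of 17 tested, beside the same all-gene shares. The interaction was called lower for Tradd and Irak4, 2 of 18 tested, against 2.56% of all genes called lower and 9.39% in either direction. Of 20 other ligands of the same families 16 were found in the tables, with medians of 0.29 and 0.56 over those tested. Clcf1, a gp130 cytokine gene, rose from 4.18 to 26.5 FPKM in WT and from 1.66 to 22.5 FPKM in β8ITGcKO, and Ctf1 fell in both. Csf2, which encodes GM-CSF, had 1.65 and 1.47 FPKM in WT and 0.305 and 2.92 FPKM in β8ITGcKO at 0 h and 24 h, with an interaction of 1.67 (SE 0.44, adjusted p = 0.0356). Cntf fell by 2.38 on the log2 scale in β8ITGcKO over time, and was higher there than in WT at 0 h (15.2 against 7.07 FPKM, adjusted p = 0.0493).

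For the 6 genes called higher in both genotypes, genes among the 3 with the most similar pattern were taken from 15262 genes by Pearson r of log2(FPKM + 1) over the 12 libraries, which share the 2 time points and therefore make many genes alike. Il1rn was nearest to Lilr4b (r = 0.996), Mnda and Cmtm3. Lif was near Srgap1 (r = 0.994) and Myo1e, and Csf1 nearest to Tnip1 (r = 0.993), Odc1 and Rgs16. Il33 was nearest to Il1r1 (r = 0.974), Plpp3 and Ampd3, and Il1b to Uqcrc1 (r = 0.989), Ppp1r8 and Ppp4r2. Csf3 was nearest to Gm3776 (r = 0.990), Gm10639 and Gsta2, which belong to a family of closely related glutathione transferase genes whose reads may be split between copies.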

How the data were processed

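RNA of LCs from WT and β8ITGcKO mice at 0 h and 24 h PCS was sequenced from stranded total RNA libraries, 3 per group. The authors deposited FPKM per library and gene from Cuffdiff, in 4 tables of 45859 rows that each hold a pair of groups. The submitters' processing notes list FastQC, cutadapt 1.12, TopHat2 2.1.0, Cuffdiff 2.2.1, mm10 and GRCm38.p5, and the annotation is not given in the sources used here. Columns with the authors' group means, fold changes, p-values and q-values were not used, nor were 8 columns of Cuffdiff group values that belong to no library. Positions in the tables overlapped the RefSeq GRCm38.p6 gene for 99.5% of the 90.0% of symbols found there.

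Each pair of groups was fitted with limma 3.58.1 (limma-trend, R 4.3.3) on log2(FPKM + 1), which understates changes of low genes, with genes averaging under 0.5 FPKM left out and Benjamini-Hochberg adjustment over all others. Fits were tested on simulated data. Summaries used pandas 2.3.3 and numpy 2.4.6 in Python 3.11.15, and plots matplotlib 3.10.9.

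The 10 genes and all lists were chosen with earlier results of these data known. All 10 genes are named in every comparison, with at most 4 called genes per list and comparison whose groups do not overlap, by size of change, and for each gene called in both genotypes the 3 genes of most similar pattern, of which 1 is not reported here. Il36a, Il36b, Il36g and Il36rn were not matched, and Gsdme was matched as Dfna5. The marker lists also covered mast cells, T cells, cornea, iris and ciliary pigment, endothelium and lens fibers. Alternatives were other pseudocounts, filters, scaling, thresholds, 1 fit over all libraries, the replicate number as a block and each library left out.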

Additional observations from a re-analysis of the deposited data

How the results depend on the processing

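The number of the 10 genes called over time kept within 1.5 times its value in every alternative run, from 5 to 7 in WT and from 6 to 9 in β8ITGcKO. Between genotypes at 24 h the count of 0 became 1 (Csf3) in 1 fit over all 12 libraries. At 0 h the count of 0 became 1 (Csf1) with FPKM rescaled to the same median, 2 with the adjusted p alone, and 0 to 1 with each library left out. For the interaction it was 0 to 1 with each library left out. Rescaling moved the median change of all genes from 0.16 to -0.05 in WT and from 0.23 to -0.00 in β8ITGcKO, and left all called genes over time called.

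The direction reversed in the following cases. The 24 h difference of Il6 became 0.038 with a pseudocount of 0.1, and the interactions became 0.63 for Il1b with that pseudocount, and -0.073 for Il33 and -0.41 for Lif with a pseudocount of 5. With each library left out, 24 h genotype differences ran from -0.10 to 0.48 for Il1a, -0.98 to 0.26 for Il1b, -0.49 to 0.056 for Il6, -0.70 to 0.17 for Il11, -0.066 to 0.43 for Tnf and -0.51 to 0.026 for Csf1, and interactions from -0.63 to 0.61 for Il1b, -0.24 to 0.42 for Il33, -0.67 to 0.21 for Il11 and -0.23 to 0.27 for Lif. The cause was not tested.

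Deviations of same-numbered libraries correlated by -0.22 to 0.08, and the labels do not say whether a replicate number marks shared animals or days. The samples were therefore not treated as paired in the main fits, although such correlations cannot exclude a shared origin. With the replicate number as a block, 7 genes were called in WT, 6 in β8ITGcKO and 0 between genotypes at either time or for the interaction, while Lif and Csf1 at 0 h had adjusted p values of 0.0779 and 0.0770 by limma. The depth is unknown, and 3 libraries a group limit the precision.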
